A study of Mus musculus with 16 samples.

Results

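The enzymes that turn citrate and acetate into long-chain fatty acids were described in the mammary glands of female mice that lived alone or in groups. They are 10 genes chosen by name: Acly, Acss2, Acaca, Acacb, Fasn, Me1, Elovl6, Elovl5, Scd1 and Scd2. All 10 were measured, by 26 of the 45037 probe sets tested and among 18193 named genes. A probe set is a group of short oligonucleotides on the array that reports on a transcript. Every probe set whose only gene symbol was a member was kept, and 1 that names Acss2 beside a second symbol was left out.

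The study placed female FVB/N mice in single or group housing after weaning and measured RNA of the whole thoracic mammary gland on Affymetrix arrays. All 4 groups, controls included, were homozygous for the SV40 large Tag gene under the C3(1) fragment of the rat prostatic steroid binding protein promoter and so carry an oncogene that drives tumours of the gland. The groups were grouped mice at 15 weeks, isolated mice at 15 weeks, grouped mice at 20 weeks and isolated mice at 20 weeks, with 4 arrays each, 16 in all. All mice were killed in estrus at a fixed hour of the dark phase. Arrays are numbered within a group, but no label states that each number is its own mouse, and the p-values then measure array-to-array spread, which may be technical. No group without the transgene is among the 16 arrays, and how much tumour each gland held is not given in the labels.

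In the cytosol, citrate exported from mitochondria is split by ATP citrate lyase (Acly) to give acetyl-CoA, and acetyl-CoA synthetase (Acss2) makes the same product from acetate. Acetyl-CoA carboxylases (Acaca and Acacb) form malonyl-CoA, fatty acid synthase (Fasn) builds palmitate from it with NADPH that malic enzyme (Me1) helps supply, and elongases (Elovl6, Elovl5) and stearoyl-CoA desaturases (Scd1, Scd2) lengthen and desaturate the chains. In the mammary gland the pathway runs in adipocytes of the fat pad and, in lactation, in the secretory epithelium, and SREBP-1c and ChREBP are its best known transcription factors.

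The promoters of members that moved together are shown because the families of factors named above bind short motifs there. RefSeq promoter entries (GRCm38.p6) were found for 8 of the 10 genes, 9 entries in all, with none for Scd1 and Scd2. The 250 bases before the annotated start were searched on both strands for 4 short motifs. The CCAAT box, bound by the general factor NF-Y, lay in 5 of 9 entries, against 33.8% of all promoters of that length. The GC box, searched as GGGCGG and bound by Sp1, lay in 3 of 9 entries, against 32.7% of all promoters. An E box was found in 1 of 9 entries by its letters CACGTG, which 6.02% of all promoters hold. A sterol element, the site of SREBP, was searched as TCACNCCAC and lay in 0 of 9 entries, against 1.05% of all promoters. At so low a share, 0 of 9 cannot tell these entries from other promoters, and sites outside the 250 bases were not searched. Shown 5′ to 3′ on the gene's strand are Fasn (chr11:120824548-120824797, minus strand), with the most CCAAT matches, Acss2 (chr2:155517793-155518042, plus strand), the member with the largest housing differences, and Elovl5 (chr9:77917115-77917364, plus strand), the entry with an E box. Capitals mark CCAAT boxes, read on either strand, and the E box.
Fasn: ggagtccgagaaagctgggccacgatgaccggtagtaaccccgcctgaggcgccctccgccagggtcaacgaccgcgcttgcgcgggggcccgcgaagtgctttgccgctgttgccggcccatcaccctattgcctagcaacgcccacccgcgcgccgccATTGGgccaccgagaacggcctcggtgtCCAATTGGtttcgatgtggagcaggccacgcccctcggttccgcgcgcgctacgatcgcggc
Acss2: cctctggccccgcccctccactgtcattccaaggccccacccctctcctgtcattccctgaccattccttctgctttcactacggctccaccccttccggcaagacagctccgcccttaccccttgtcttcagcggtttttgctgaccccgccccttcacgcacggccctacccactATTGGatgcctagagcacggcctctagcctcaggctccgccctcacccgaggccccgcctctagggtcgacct
Elovl5: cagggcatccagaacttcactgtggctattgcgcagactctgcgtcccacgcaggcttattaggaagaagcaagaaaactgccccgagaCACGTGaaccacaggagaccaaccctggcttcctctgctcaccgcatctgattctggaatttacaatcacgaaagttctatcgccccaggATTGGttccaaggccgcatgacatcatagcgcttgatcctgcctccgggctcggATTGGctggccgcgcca
Fasn held 3 CCAAT matches, a pair of which overlap on opposite strands, Acss2 held 1 with 4 GC boxes, and Elovl5 held 2 with the E box. These matches are a description of letters and do not show binding.

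Levels are the deposited RMA values on the log2 scale. Array medians were 8.09 to 8.11 at 15 weeks and 8.31 to 8.34 at 20 weeks, and the arrays of an age shared a distribution of values. The median of all probe sets lay 0.24 higher at 20 weeks in both housings, and that of 46 control probe sets for non-mouse sequences 0.15 higher. No label records a processing run, and a run that followed age could not be told apart from age. Age differences below are therefore relative to each array's median. No pair of arrays in a group was a duplicate (lowest SD of the difference 0.115). Both luminal markers (list means of 11.42 to 12.18 per array) and basal markers (9.87 to 10.88) of mammary epithelium were measured, as were white adipocyte markers (10.59 to 12.88). For each gene its brightest probe set on average is described first.

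A pair of arrays stood apart from the rest of their groups for these enzymes. Replicate 1 of grouped mice at 15 weeks was the lowest of its group for 10 of 10 genes. Replicate 4 of isolated mice at 20 weeks was the highest of its group for 10 of 10, and lay above every grouped array of that age for 6. The mean level of the 10 genes was 12.29 on the first, against 12.90 to 13.09 on the other grouped arrays, and 12.72 on the second, against 11.51 to 11.69 on the other isolated arrays. The median SD of the 10 genes was 0.31 in grouped and 0.08 in isolated mice at 15 weeks, and 0.20 and 0.59 at 20 weeks. Over all genes the median SD was between 0.08 and 0.11 in each group. Counts of enzymes that passed are given below with and without these arrays, and the marker lists and correlations are given for all arrays first and then without them.

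Relative to the array medians, all 10 genes took the same order of group means. Isolated mice at 15 weeks were highest, then grouped mice at 15 weeks, grouped mice at 20 weeks and isolated mice at 20 weeks. Of all genes 12.2% had that order. Neighbouring groups in that order overlapped for 5, 6 and 10 of the 10 genes. The 4 isolated arrays at 15 weeks lay above every array of 20 weeks for 10 of 10, as they did for 16.8% of genes.

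**Figure D1:**
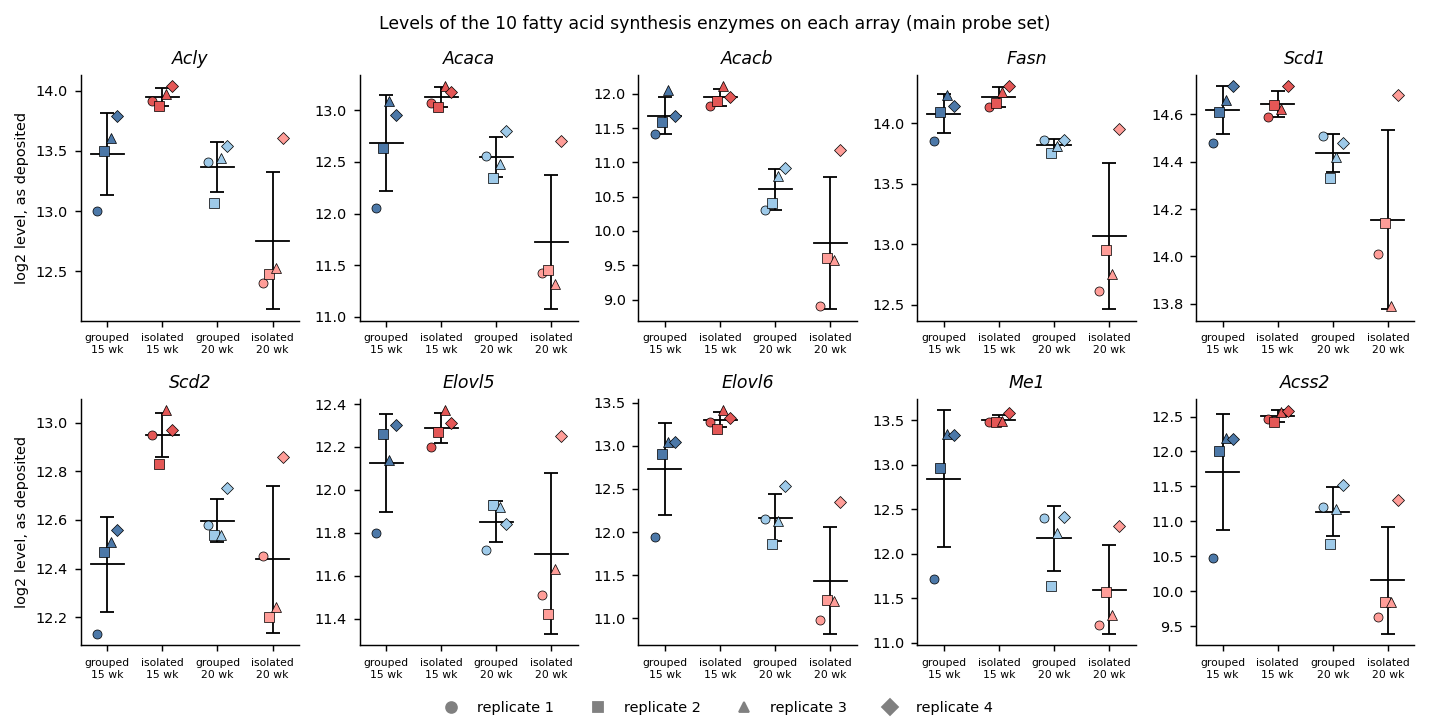
Deposited log2 level (vertical axis) of each enzyme's main probe set on each of the 16 arrays, by housing and age. Symbols give the replicate number, the long bar is the group mean and whiskers are ±1 SD (n = 4 arrays). Isolated arrays at 15 weeks lie close together and have the highest group mean of each enzyme. On this scale single arrays of other groups can reach them, as in Scd1 (14.59 to 14.72, against 14.68 on isolated replicate 4 at 20 weeks). That replicate lies apart from isolated replicates 1 to 3 of its age, as in Acss2 (11.30 against 9.63 to 9.85).

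Both enzymes that make cytosolic acetyl-CoA were higher in isolated mice at 15 weeks without overlap and had a lower mean in isolated mice at 20 weeks, and neither housing difference passed the test. Acss2 levels at 15 weeks were 10.47, 12.00, 12.19 and 12.18 in replicates 1 to 4 of grouped mice and 12.46, 12.42, 12.57 and 12.58 in isolated mice. Every isolated array lay above every grouped array, and grouped replicate 1 lay far below the other grouped arrays. At 20 weeks Acss2 read 11.20, 10.67, 11.17 and 11.52 in grouped and 9.63, 9.85, 9.84 and 11.30 in isolated mice. Isolated replicates 1 to 3 lay below all grouped arrays and replicate 4 lay among them. The housing difference (isolated minus grouped) of Acss2 was 0.80 at 15 weeks (SE 0.32, 95% interval 0.10 to 1.5, 1.74-fold, adjusted p = 0.485). At 20 weeks it was -0.99 (SE 0.34, interval -1.74 to -0.23, 1.98-fold, adjusted p = 0.588). These adjusted p-values, like all others here, are from limma with Benjamini-Hochberg adjustment over 45037 probe sets and a threshold of 0.05.

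Acly followed the same course. Its levels at 15 weeks were 13.00, 13.50, 13.61 and 13.79 in grouped and 13.91, 13.87, 13.97 and 14.04 in isolated mice. The groups did not overlap, with grouped replicate 1 lowest. At 20 weeks the levels were 13.41, 13.07, 13.44 and 13.54 in grouped and 12.40, 12.48, 12.53 and 13.61 in isolated mice. Isolated replicate 4 was the highest array of that age, and the other isolated arrays were the lowest. The differences were 0.47 (SE 0.15, 1.39-fold, adjusted p = 0.414) at 15 weeks and -0.62 (SE 0.25, 1.53-fold, adjusted p = 0.618) at 20 weeks. All 6 Acly probe sets were higher in isolated mice at 15 weeks without overlap, by 0.10 to 0.61, and lower in mean at 20 weeks, by -0.62 to -0.11. The dimmest pair of them read in the lowest 1.54% of all probe sets, where little can be said of a transcript.

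The carboxylases that make malonyl-CoA overlapped between housings at both ages, and neither passed. Acaca, the main carboxylase of lipogenic tissue, read 12.05, 12.64, 13.09 and 12.96 in grouped and 13.07, 13.03, 13.24 and 13.18 in isolated mice at 15 weeks. The groups overlapped through grouped replicate 3. The Acaca levels at 20 weeks were 12.56, 12.34, 12.48 and 12.80 in grouped and 11.42, 11.45, 11.32 and 12.70 in isolated mice. Isolated replicates 1 to 3 were about 1 unit under the grouped arrays and replicate 4 was not. The Acaca difference was 0.45 (SE 0.19, adjusted p = 0.497) at 15 weeks and -0.82 (SE 0.27, 1.77-fold, adjusted p = 0.587) at 20 weeks, and that of its second probe set was 0.07 (SE 0.20) and -0.31 (SE 0.32).

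Acacb encodes the carboxylase of the outer mitochondrial membrane, whose malonyl-CoA restrains fatty acid oxidation. In grouped mice it read 11.41, 11.59, 12.06 and 11.68 at 15 weeks and 10.30, 10.41, 10.80 and 10.92 at 20 weeks. In isolated mice it read 11.83, 11.90, 12.12 and 11.96 at 15 weeks and 8.91, 9.60, 9.58 and 11.18 at 20 weeks. The housings overlapped at both ages, while in each housing every array of 20 weeks lay below every array of 15 weeks. The housing difference was 0.27 (SE 0.13, adjusted p = 0.525) at 15 weeks and -0.79 (SE 0.40, adjusted p = 0.657) at 20 weeks. The second Acacb probe set was dimmer, at 7.54 to 7.73 in the group means, and differed by -0.03 (SE 0.08) at 20 weeks.

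Fasn, the synthase itself, had 1 probe set. It read 13.85, 14.09, 14.23 and 14.14 in grouped and 14.13, 14.17, 14.26 and 14.31 in isolated mice at 15 weeks. The groups overlapped, and all 8 arrays lay within 0.5 units. At 20 weeks the grouped arrays read 13.86, 13.75, 13.81 and 13.86 and the isolated arrays 12.61, 12.95, 12.75 and 13.95. The grouped arrays were the tightest of any member at that age, isolated replicates 1 to 3 lay below all of them and replicate 4 above all. The difference was 0.14 (SE 0.10, interval -0.07 to 0.35, adjusted p = 0.635) at 15 weeks and -0.75 (SE 0.25, 1.68-fold, adjusted p = 0.581) at 20 weeks.

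Me1, which yields NADPH from malate, had the widest spread of the grouped mice at 15 weeks next to Acss2. Its levels there were 11.72, 12.97, 13.35 and 13.33, and those of isolated mice were 13.48, 13.48, 13.49 and 13.58. Isolated arrays were all higher than grouped ones and nearly equal to each other. The levels at 20 weeks were 12.40, 11.64, 12.24 and 12.42 in grouped and 11.20, 11.57, 11.31 and 12.31 in isolated mice. Isolated replicate 4 lay among the grouped arrays and replicates 1 to 3 under them. The Me1 difference was 0.67 (SE 0.29, 1.59-fold, adjusted p = 0.510) at 15 weeks and -0.58 (SE 0.25, 1.49-fold, adjusted p = 0.628) at 20 weeks.

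The elongase genes had housing differences of unlike size, none of which passed. Elovl6, which extends palmitate to stearate, read 11.94, 12.91, 13.05 and 13.04 in grouped and 13.28, 13.20, 13.41 and 13.32 in isolated mice at 15 weeks. No grouped array reached the isolated ones. Its 20-week levels were 12.15, 11.86, 12.13 and 12.53 in grouped and 10.98, 11.21, 11.20 and 12.35 in isolated mice. Again replicate 4 alone of the isolated arrays lay within the grouped range. The differences were 0.57 (SE 0.21, 1.48-fold, adjusted p = 0.472) and -0.73 (SE 0.27, 1.66-fold, adjusted p = 0.610). Elovl5, which extends polyunsaturated chains, read 11.80, 12.26, 12.14 and 12.30 in grouped and 12.20, 12.27, 12.37 and 12.31 in isolated mice at 15 weeks, and the groups overlapped. At 20 weeks it read 11.72, 11.93, 11.92 and 11.84 in grouped and 11.51, 11.42, 11.63 and 12.25 in isolated mice, the last of which exceeded all grouped arrays. Its differences of 0.16 (SE 0.11, interval -0.07 to 0.40) and -0.15 (SE 0.16, interval -0.51 to 0.21) had adjusted p = 0.615 and adjusted p = 0.817.

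Scd1 and Scd2 place a double bond in stearate and palmitate. Scd2 had the smallest unadjusted p of the members at 15 weeks. It read 12.13, 12.47, 12.51 and 12.56 in grouped and 12.95, 12.83, 13.05 and 12.97 in isolated mice. The groups were well apart, and the other 2 Scd2 probe sets did not overlap either (0.40, SE 0.11, and 0.44, SE 0.14). The difference was 0.53 (SE 0.10, interval 0.31 to 0.75, 1.45-fold, unadjusted p = 0.000265, adjusted p = 0.175). At 20 weeks Scd2 read 12.58, 12.54, 12.54 and 12.73 in grouped and 12.45, 12.20, 12.24 and 12.86 in isolated mice, a difference of -0.16 (SE 0.14, adjusted p = 0.771). Scd1 read 14.48, 14.61, 14.66 and 14.72 in grouped and 14.59, 14.64, 14.62 and 14.72 in isolated mice at 15 weeks, with overlap (difference 0.02, SE 0.08, interval -0.16 to 0.21, adjusted p = 0.934). At 20 weeks its levels were 14.51, 14.33, 14.42 and 14.48 in grouped and 14.01, 14.14, 13.79 and 14.68 in isolated mice (-0.28, SE 0.16, adjusted p = 0.685). The Scd1 levels lay close to the brightest probe set of each array (14.45 to 14.86), where a true difference can be compressed, which was not tested.

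At 15 weeks, then, all 10 genes had a higher mean in isolated mice, with a median difference of 0.46, and 0 of 10 passed. Over all 18193 genes the median difference was -0.01 and 46.0% were positive. Only 0.00888% of the 45037 probe sets (4) passed in this comparison, and 9.71% had an unadjusted p under 0.05. Of the 26 member probe sets 18 had such a p. Relative to the array medians, isolated arrays lay wholly above grouped arrays for 5 of 10 genes and for 18 of 26 probe sets. This was so for 1.91% of all genes and 1.82% of all probe sets. The other 8 probe sets overlapped, and differences over the 26 ran from -0.03 to 0.89. As deposited, the second Elovl5 probe set overlapped too (11.69 to 12.12 in grouped and 12.11 to 12.31 in isolated mice). Without grouped replicate 1 the differences of Acss2, Me1, Elovl6, Acly, Acaca and Scd2 were 0.39, 0.29, 0.30, 0.31, 0.23 and 0.44, and again 0 of 10 passed while 0.0488% of probe sets did. Scd1 had -0.02 without that array. A sign of RNA integrity, the gap between 3' and 5' control probe sets of Gapdh, was -0.06 ± 0.02 (SD, n = 4) in grouped and -0.01 ± 0.02 in isolated arrays (two-sided exact permutation p = 0.0571, smallest possible 0.0286). With that gap as a covariate the largest differences were those of Acss2 (1.45, SE 0.46), Me1 (1.25, SE 0.43) and Elovl6 (0.94, SE 0.32). Their SEs were larger than without it. Acacb differed by less than without it (0.19, SE 0.21), and 0 of 10 passed.

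At 20 weeks all 10 genes had a lower mean in isolated mice, with a median difference of -0.67 against -0.01 over all genes, and 0 of 10 passed. In that comparison 0.00888% of probe sets (4) passed and 7.88% had an unadjusted p under 0.05, as did 12 of the 26 member probe sets. Relative to the array medians, isolated arrays lay wholly below grouped arrays for 0 of 10 genes and for 3 of 26 probe sets. Those 3 were all of Acly, its dimmest pair among them, and the shares were 1.98% of all genes and 1.82% of all probe sets. On that scale replicates 1 to 3 of the isolated mice lay below every grouped array for 10 of the 10, as they did for 7.54% of all genes. Without isolated replicate 4, an array singled out after its values were seen, 6 of 10 passed as lower, against 0.397% of probe sets. Fasn fell by 1.05 on the log2 scale (SE 0.09, 2.07-fold, adjusted p = 0.00602), Acaca by 1.15 (SE 0.11, 2.21-fold, adjusted p = 0.00738) and Acly by 0.90 (SE 0.11, adjusted p = 0.0202). Acss2 fell by 1.37 (SE 0.17, 2.58-fold, adjusted p = 0.0204), Elovl6 by 1.03 (SE 0.14, adjusted p = 0.0261) and Acacb by 1.24 (SE 0.20, adjusted p = 0.0495). Me1 (-0.82, adjusted p = 0.147), Scd1 (-0.46, adjusted p = 0.123), Scd2 (-0.30, adjusted p = 0.247) and Elovl5 (-0.33, adjusted p = 0.179) did not pass. Leaving out any of the other 7 arrays of that age gave 0 of 10. The Gapdh gap was -0.01 ± 0.03 in grouped and -0.02 ± 0.03 in isolated arrays at 20 weeks (exact permutation p = 0.629).

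**Figure D2:**
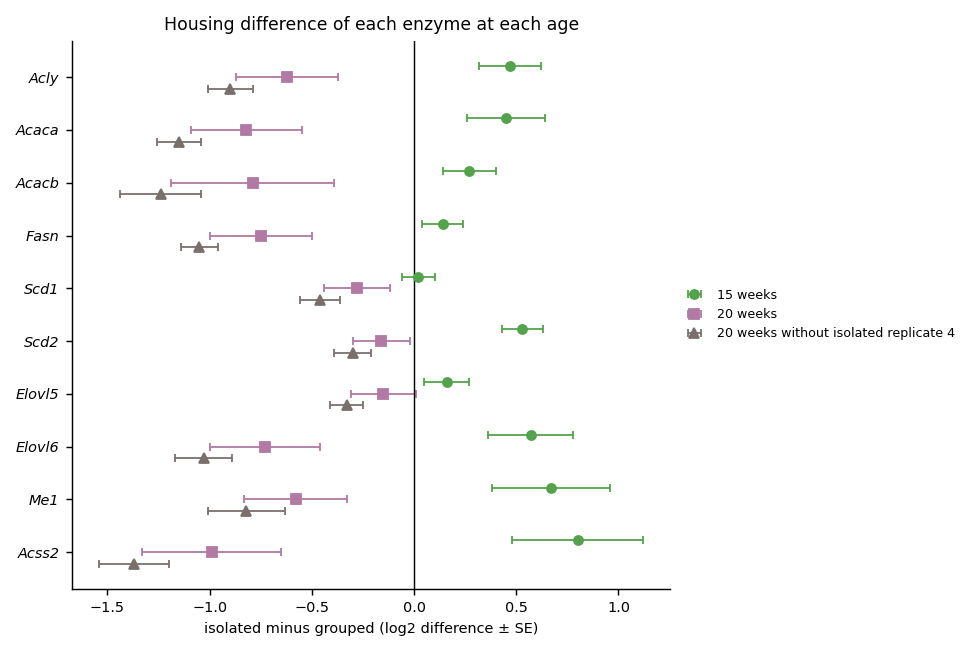
Housing difference (isolated minus grouped, log2 units, ± SE from limma) of each enzyme at 15 weeks (circles), at 20 weeks (squares) and at 20 weeks without isolated replicate 4 (triangles). All 10 circles lie right of 0 and all 10 squares left of it, and without replicate 4 the 20-week differences run from -1.37 for Acss2 to -0.30 for Scd2.

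The change of the housing difference between the ages was tested over all 16 arrays. The difference at 20 weeks minus that at 15 weeks was negative for 10 of 10 genes, with a median of -1.07 against -0.01 over all genes, and 0 of 10 passed. Among the marker lists described below, it was also negative for 10 of 10 white adipocyte (median -0.62) and 7 of 7 muscle genes (-0.52). It was positive for 7 of 7 macrophage (1.07) and 6 of 6 fibroblast and matrix genes (0.46), and none of these passed. Milk genes were negative in 7 of 8 (-0.47), of which 1 passed, and luminal genes in 7 of 8 (-0.22), of which 0 passed. Among the enzymes the value was -1.79 for Acss2 (SE 0.51, adjusted p = 0.221), -1.30 for Elovl6 (SE 0.38, adjusted p = 0.222) and -1.27 for Acaca (SE 0.36, adjusted p = 0.218). Among the main probe sets Scd2 had the lowest adjusted p (-0.69, SE 0.18, adjusted p = 0.189), and Scd1 (-0.30, SE 0.19) and Elovl5 (-0.32, SE 0.21) had the smallest values. Another probe set of Acly had a lower adjusted p (-0.76, SE 0.14, adjusted p = 0.148). Unadjusted p was under 0.05 for 8 of 10, against 12.6% of genes, while 0.00666% of probe sets (3) passed. Without isolated replicate 4 at 20 weeks 7 of 10 passed as negative, against 0.326% of probe sets: Fasn at -1.19 (adjusted p = 0.00335), Acly at -1.37 (0.0131), Acaca at -1.59 (0.0162), Scd2 at -0.83 (0.0201), Acacb at -1.51 (0.0209), Elovl6 at -1.60 (0.0298) and Acss2 at -2.17 (0.0392). Me1 (-1.48, adjusted p = 0.131), Elovl5 and Scd1 did not. Without grouped replicate 1 at 15 weeks 0 of 10 passed, with -1.37 for Acss2 (adjusted p = 0.233) and -0.60 for Scd2 (adjusted p = 0.231).

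**Figure D3:**
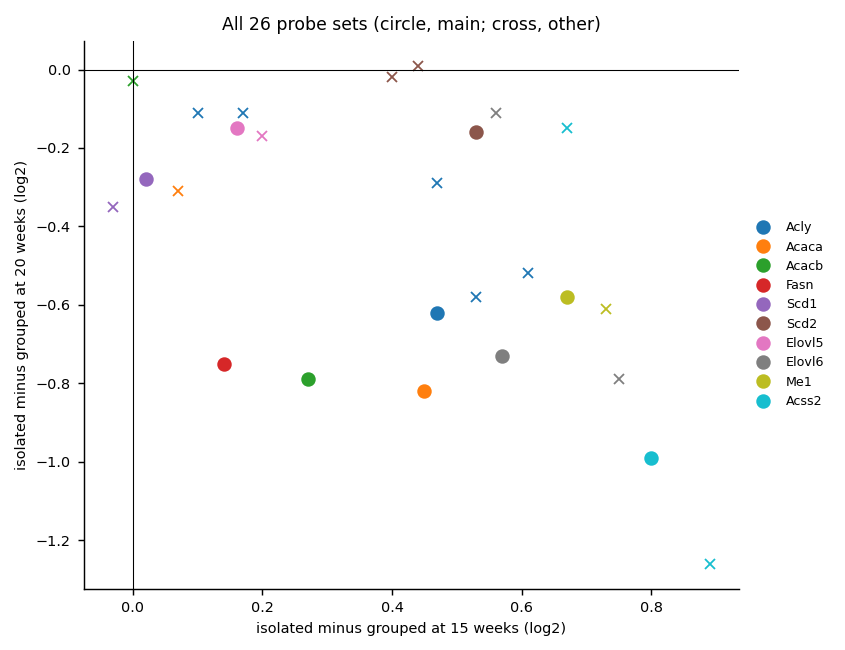
Housing difference at 15 weeks (horizontal) against that at 20 weeks (vertical), in log2 units, for all 26 probe sets; circles are each gene's main probe set and crosses its others. At 15 weeks 24 of 26 lie right of 0 and at 20 weeks 25 of 26 lie below 0, and the 3 Acss2 probe sets reach 0.67 to 0.89 at 15 weeks.

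Between 15 and 20 weeks all 10 enzymes passed as lower in isolated mice, relative to the array medians. In grouped mice all 10 had a lower mean at 20 weeks and 5 passed. The fits share arrays with the housing comparisons, and age could not be told apart from a processing run that followed it, which no label records. In isolated mice 10 of 10 genes passed as lower, against 23.8% of genes. Acss2 fell 5.97-fold (-2.58, SE 0.30, adjusted p = 0.000139), Acacb 5.13-fold (-2.36, SE 0.38, adjusted p = 0.000749), Me1 4.39-fold (-2.13, SE 0.20, adjusted p = 4.52e-05) and Elovl6 4.25-fold (-2.09, SE 0.25, adjusted p = 0.000139). Acaca (-1.63), Acly (-1.42) and Fasn (-1.38) fell 2.60-fold to 3.10-fold, and Elovl5 (-0.81), Scd2 (-0.74) and Scd1 (-0.71) 1.63-fold to 1.75-fold. The second Scd1 probe set fell 2.56-fold (-1.35, SE 0.28, adjusted p = 0.00311). Every array of 20 weeks lay below every array of 15 weeks for each of the 10, as for 22.1% of genes. Leaving out any of the 8 arrays in turn, isolated replicate 4 included, kept all 10 past the threshold. Of the 26 probe sets 25 passed as lower (22.8% of all probe sets), the exception being the dimmer one of Acacb.

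In grouped mice 5 of 10 passed as lower, against 19.3% of genes. Acacb fell 2.48-fold (-1.31, SE 0.17, adjusted p = 0.000487), Elovl6 1.74-fold (-0.80, SE 0.24, adjusted p = 0.0252), Elovl5 1.42-fold (-0.50, SE 0.11, adjusted p = 0.00688), Fasn 1.41-fold (-0.49, SE 0.10, adjusted p = 0.00347) and Scd1 1.33-fold (-0.41, SE 0.09, adjusted p = 0.00494). The second, less bright Scd1 probe set fell more, 2.06-fold (-1.04, SE 0.16, adjusted p = 0.00118). With the Gapdh gap between 3' and 5' probe sets as a covariate, only Acacb of the 10 passed (-1.36, adjusted p = 0.0144), and the adjusted p was 0.224 for Elovl6, 0.208 for Elovl5, 0.0605 for Fasn and 0.0584 for Scd1. Me1 (-0.90, SE 0.33, adjusted p = 0.0570), Acss2 (-0.80, SE 0.35, adjusted p = 0.0986), Acaca (-0.37), Acly (-0.34) and Scd2 (-0.05, interval -0.28 to 0.18) did not pass on their main probe sets. Other probe sets of Acaca (-1.28, SE 0.25, 2.43-fold, adjusted p = 0.00371) and of Acly (-1.06, SE 0.23, 2.09-fold, adjusted p = 0.0058) did pass, with every array of 20 weeks below every array of 15 weeks. The second Me1 probe set passed too (-0.81, SE 0.26, 1.75-fold, adjusted p = 0.0311), though its groups overlapped. Of the 26 probe sets 11 passed as lower, against 18.8% of all probe sets, and 8 did not overlap in that direction, against 18.3%. Without grouped replicate 1 at 15 weeks 9 of 10 passed as lower (18.1% of all probe sets), all but Scd2. On the values as deposited, not centred, 2 of 10 passed. The split of all calls in grouped mice was then 26130 higher and 2568 lower, against 8618 and 8450 after centring, and in isolated mice 26738 and 3681 against 12178 and 10287. All 10 genes passed as lower in isolated mice on either scale.

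Of the other genes of fatty acid synthesis and its control, 38 of 41 listed were measured. At 15 weeks 20 had a positive and 18 a negative difference, with a median of 0.00 and 0 passing. At 20 weeks 31 of 38 were negative, with a median of -0.17 and 0 passing. Without grouped replicate 1 and isolated replicate 4 the medians were -0.01 and -0.29. Mlxipl, which encodes ChREBP, had 0.61 (SE 0.12, adjusted p = 0.183) and -0.61 (SE 0.21, adjusted p = 0.588). The NADPH-forming pentose phosphate enzyme Pgd had 0.57 (SE 0.15, adjusted p = 0.332) and -0.38 (SE 0.17, adjusted p = 0.641). Slc25a1, the carrier that exports citrate from mitochondria, had 0.50 (SE 0.22) and -0.70 (SE 0.22), and Srebf1, which encodes SREBP-1, had 0.18 (SE 0.11) and -0.50 (SE 0.14), with adjusted p from 0.486 to 0.589 for these. Insig1, which holds SREBP in the endoplasmic reticulum, had -0.61 (SE 0.20, adjusted p = 0.580) at 20 weeks. At 15 weeks the AMP-activated kinase subunits Prkaa2 and Prkaa1 had 0.38 (adjusted p = 0.279) and -0.18 (adjusted p = 0.484).

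With age, 27 of the 38 passed as lower and 6 as higher in isolated mice, where 23.8% of all genes passed as lower and 26.5% as higher. In grouped mice 19 of the 38 passed as lower and 4 as higher, where 19.3% of all genes passed as lower and 17.9% as higher. The list medians were -0.57 in isolated and -0.33 in grouped mice, and -0.68 and -0.38 without the array that stood apart in each. The largest falls in isolated mice were those of Insig1 (-2.03), the elongase Elovl3 (-1.93), Mlxipl (-1.84), Slc25a1 (-1.79), Thrsp, a lipogenic cofactor (-1.49), and Pgd (-1.42). Citrate synthase (Cs, -1.06), the NADPH-forming Idh1 (-1.0), the ketoreductase of chain elongation Hsd17b12 (-0.95) and Srebf1 (-0.92) came next. Falls of 0.82 to 0.61 were those of Mecr, Tecr, Mid1ip1, Scd3, Acss1, Prkaa2, Hacd2, Aco1 and Hacd1, of which Tecr is a reductase and Hacd1 and Hacd2 are dehydratases of chain elongation. Mdh1, Mlycd, Me3, Mcat, Fads1, Oxsm, Nr1h3 and Fads2 fell by 0.54 to 0.18. In grouped mice Elovl3 (-1.73), Insig1 (-1.40), Thrsp (-0.78), the dehydratase Hacd2 (-0.76), the mitochondrial reductase Mecr (-0.72) and Idh1 (-0.72) fell most. The other 13 that passed as lower there, by 0.66 to 0.27, were Hsd17b12, Mlxipl, Hacd1, Cs, Acss1, Scd3, Pgd, Oxsm, Nr1h3, Mcat, Tecr, Mlycd and Aco1. Elovl4, an elongase of very long chains, rose by 1.01 (SE 0.11, adjusted p = 0.00019) in grouped and by 1.10 (SE 0.17, adjusted p = 0.000655) in isolated mice, and Elovl7 rose by 0.56 in both. The malic enzyme of mitochondria, Me2, rose by 0.25 in grouped and 0.55 in isolated mice, and Elovl2 by 0.16 and 0.18. Insig2 (0.61) and Elovl1 (0.31) rose in isolated mice. The rises of elongases go against the direction of Elovl5 and Elovl6.

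White adipocyte markers were measured beside these results, since fat is a main site of the pathway. In whole glands, fewer cells of a type and less RNA per cell cannot be told apart. At 20 weeks 10 of 10 measured markers had a lower mean in isolated mice, with a median of -0.79 and 0 passing. Among them were the hormone genes Adipoq (-0.92, SE 0.23, adjusted p = 0.478) and Retn (-0.90, SE 0.20, adjusted p = 0.431) and the lipases Lpl (-0.80) and Lipe (-0.84). The marker mean read 12.09, 11.78, 11.88 and 11.76 in grouped and 10.59, 11.16, 10.96 and 11.87 in isolated arrays. As with the enzymes, isolated replicates 1 to 3 lay under the grouped arrays and replicate 4 among them. Brown adipocyte markers read 10.27 to 11.26 in grouped arrays and 8.77, 10.31, 10.80 and 11.51 in isolated arrays. Macrophage markers had higher means in isolated mice in 7 of 7 (median 0.60) and fibroblast and matrix markers in 6 of 6 (0.34). Luminal markers had lower means in 8 of 8 (-0.11). None of these passed, and the housings overlapped in each of these lists. Macrophage means read 10.38, 9.85, 11.40 and 9.85 in grouped and 10.39, 11.34, 11.46 and 11.06 in isolated arrays. Matrix means ran from 11.96 to 13.20 in grouped and from 12.32 to 13.12 in isolated arrays. Muscle markers were lower in mean in 7 of 7 (-0.47). Milk genes were lower in mean in 7 of 8 (-0.32), and 2 of 8 passed as lower, the caseins Csn2 (-4.26, adjusted p = 0.00831) and Csn1s1 (-0.94, adjusted p = 0.0186). Milk means did not overlap, at 9.38, 9.65, 9.50 and 9.70 in grouped and 8.17, 8.57, 8.36 and 8.67 in isolated arrays. Without isolated replicate 4 the median was -1.05 for adipocyte, 0.63 for macrophage, 0.25 for matrix, -0.14 for luminal and -0.50 for muscle markers. For milk genes it was -0.43. The part of these in the 20-week result was not tested.

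At 15 weeks 8 of 10 adipocyte markers had a lower and 2 a higher mean in isolated mice, with a median of -0.09 against 0.46 for the enzymes. The marker mean ran from 12.28 to 12.88 in grouped arrays, and the isolated arrays lay between 12.27 and 12.54. In this list grouped replicate 1 held the lowest grouped value. Luminal markers had a median of 0.05 (6 of 8 positive), muscle markers 0.06 (7 of 7) and milk genes -0.09 (3 of 8). Macrophage markers had lower means in isolated mice in 7 of 7 (median -0.40), with list means of 10.78 to 10.95 on grouped arrays, above all isolated ones (10.23 to 10.68). Lymphocyte markers read 9.67 on grouped replicate 1, the array lowest for all 10 enzymes, against 8.22 to 8.32 on the other grouped arrays. Without that array the median difference was -0.24 for adipocyte markers (10 of 10 negative), 0.26 for the enzymes (9 of 10 positive) and -0.38 for macrophage markers. For lymphocyte markers it was 0.04, where it was -0.47 with all arrays. The part of lymphocyte and macrophage markers in the 15-week result was not tested. With age, 10 of 10 adipocyte markers fell in grouped (median -0.85) and in isolated mice (-1.66), beside medians of -0.50 and -1.52 for the enzymes.

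**Figure D4:**
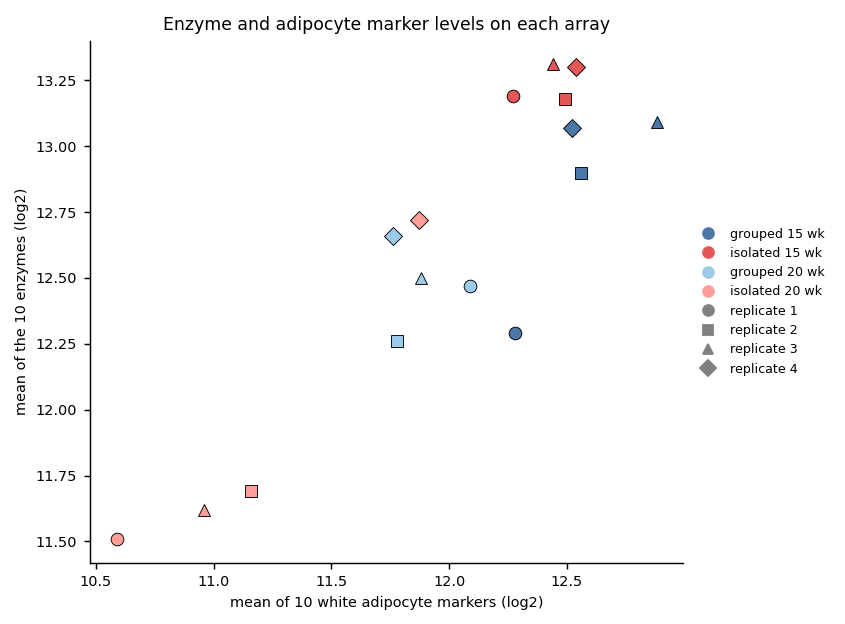
Mean log2 level of the 10 enzymes (vertical) against that of 10 white adipocyte markers (horizontal) on each of the 16 arrays; colours give housing and age and symbols the replicate. Isolated arrays at 15 weeks hold enzyme means of 13.18 to 13.31 at marker means of 12.27 to 12.54, where grouped arrays of that age have marker means of 12.28 to 12.88, and isolated replicates 1 to 3 at 20 weeks lie lowest on both axes.

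The enzymes varied together from array to array. With each value taken relative to the mean of its age, Pearson's r between pairs of the 10 genes over 16 arrays ran from 0.58 (Scd1 with Scd2) to 0.99 (Elovl6 with Acss2), with a median of 0.84 over 45 pairs. Without both arrays that stood apart the median was 0.85 (lowest 0.46) over 14 arrays. The arrays share their normalization, and the housing groups and the arrays that stood apart are part of this likeness. Among 18079 genes outside the members and lists, those most like the enzyme mean were the pentose phosphate enzyme Tkt (r = 0.974), Parm1 (0.970), the lipid droplet lipase Pnpla3 (0.964), Aldh1a7 (0.964) and Mrap, an accessory protein of melanocortin receptors (0.961). Over those 14 arrays r was 0.942 to 0.985 for these 5. Tkt had a housing difference of 0.29 at 15 weeks and -0.70 at 20 weeks, and none of these 5 passed in either (adjusted p from 0.431 to 0.639).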

How the data were processed

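RNA of mammary glands was measured on 16 Affymetrix mouse arrays, 4 per combination of housing and age. The deposited values are log2 levels that the authors made with RMA in affy, without a stated version, per the submitters' processing notes. Of 45101 probe sets, 64 are Affymetrix controls, and the other 45037 were tested. Symbols came from the platform's gene table (34945 probe sets with 1 symbol, 932 with several, 9160 with none) and were checked against RefSeq (GRCm38.p6), where 0 changed. Precision is limited by the number of arrays, which have no read depth.

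The test was limma 3.58.1 (R 4.3.3): linear fits, eBayes moderation with a trend on intensity, and Benjamini-Hochberg adjustment across all 45037 at a threshold of 0.05. Comparisons of 2 groups used their own 8 arrays, and the interaction all 16. For age, and for counts of groups that did not overlap, each array's median was subtracted. The members, lists and tests were chosen with earlier results of these data known. Named were all members, other pathway genes that passed or had the 4 smallest p per housing comparison, and the 5 genes most like the enzyme mean. Lists are described by counts and medians beside those of all genes.

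Alternatives were quantile normalization, 1 probe set per gene, a filter at the 40th percentile, a constant eBayes prior, the replicate number as a block, 3' minus 5' differences as covariates, all 16 arrays in a fit, uncentred values and leaving out each array. Deviations of same-numbered arrays correlated above 0.1 in 8 of 16 pairs (-0.225 to 0.466), and the labels give no pairing, so they were not taken as pairs. Lists and correlations without the arrays that stood apart were added after the data were seen. Known shifts in simulated data were used to test these fits. Shifts of 0.5 were recovered for 62 of 67 probe sets at 15 weeks, 56 of 67 at 20 weeks and 39 of 67 for the interaction. With shifts of 0.5, 1 and 2 together, false calls were 25 of 220, 21 of 208 and 15 of 185 calls, in that order.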

Additional observations from a re-analysis of the deposited data

Results flagged for a closer look

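In 40 sets of 4 arrays (10 genes in 4 groups), the gap between the most extreme array and its nearest neighbour was divided by the range of the set. It exceeded the 95% critical value of Dixon's test in 7 of 40. Chance puts about 1 in 20 groups past it, and the genes are not independent, since 1 array enters all of them.

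Replicate 4 of isolated mice at 20 weeks was past it, as the highest array, for Acaca (0.903), Acly (0.89), Acss2 (0.87) and Elovl6 (0.831). Replicate 1 of grouped mice at 15 weeks was past it, as the lowest, for Acss2 (0.886) and Elovl6 (0.875). Replicate 4 of isolated mice at 15 weeks was the highest for Me1 (0.923), where the other 3 arrays differed by no more than 0.01 and the whole range of the group was small.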

How the results depend on the processing

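At 15 weeks 0 of 10 enzymes passed under each alternative run, with adjusted p of 0.0796 or more. At 20 weeks 0 passed except without isolated replicate 4 (range over arrays left out 0 to 6), and for the interaction the range was 0 to 7. In isolated mice 10 of 10 fell with age under each alternative of the main probe sets. In grouped mice the count of 5 became 1 with the Gapdh covariate, 2 on uncentred values, and 4 to 9 with an array left out. Without the pairing being given by the labels, the replicate block left these counts at 0, 0, 5, 10 and 0. Reversed directions were small: Scd1 at 15 weeks (-0.02 without grouped replicate 1, -0.00065 without isolated replicate 4, -0.03 with its second probe set), Acacb at 15 weeks (-0.0003 with its second probe set), Scd2 at 20 weeks (0.01 with another probe set) and with age in grouped mice (0.06 after quantile normalization, 0.18 uncentred), and Acly with age in grouped mice (0.10 and 0.06 with other probe sets). The median of lymphocyte markers at 15 weeks became 0.04 without grouped replicate 1. The causes were not tested.

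Over all probe sets, 4 passed at 15 weeks, with 0 after quantile normalization, 8 with 1 probe set per gene, 1 with the Gapdh and 15 with the actin covariate, and 0 to 62 with an array left out. At 20 weeks 4 passed, with 2 for 1 probe set per gene, 22 with the replicate block, 11 with all 16 arrays and 0 to 192 with an array left out. The interaction had 3, with 1 for the filter, the constant prior or the replicate block, 0 and 85 with the Gapdh and actin covariates, and 0 to 183 with an array left out. Age gave 17068 in grouped mice, with 6779 for 1 probe set per gene, 9289 with the filter, which tests fewer, 6312 with the Gapdh covariate and 28698 uncentred. In isolated mice the 22465 became 9139 and 13789 with 1 probe set per gene and the filter. Dim probe sets limit what can be said of the weaker probe sets of Acly, Acacb, Elovl6 and Acss2.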
